A study of Mus musculus with 8 samples.

Results

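The change between 4 h and 8 h of recovery from arsenite was measured in NIH3T3 cells, an established line of mouse fibroblasts. Genes were taken when listed in both recovery tables, which held for 9972 of the 10690 genes listed in any of the 3 tables. PASs, the cleavage and polyadenylation sites at which an mRNA ends, were taken likewise, and 16999 of 21906 were listed in both. All cells were labelled as proliferating, and total RNA was used. NT cells were untreated, AS cells had 250 µM sodium arsenite for 1 h, and RC4 and RC8 cells had the same exposure followed by 4 h or 8 h in regular medium. Each condition had 1 QuantSeq FWD library, a 3′ end method whose reads start near the PAS of an mRNA. There was thus no replicate and no test, every interval covers counting error or the spread of genes only, and the culture and the condition cannot be told apart.

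Arsenite binds protein thiols, and the cell answers through several transcription factors. HSF1 induces chaperones when proteins misfold, NRF2 induces genes of glutathione and heme metabolism, MTF1 induces metal-binding proteins, and ATF4 acts when translation initiation is blocked. These responses are known to be transient. Pre-mRNAs of many genes have several PASs: a distal PAS in the 3′-most exon gives a long 3′UTR, a proximal one a short 3′UTR, and an intronic PAS truncates the coding sequence.

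The libraries had 22.9 M reads (RC4) and 23.0 M reads (RC8) on genes, and all 10 fibroblast markers of a fixed list were present while 0 of 13 markers of other cell types were listed in any table. Of the 10 fibroblast markers, 9 were lower at RC8 than at RC4 and 0 passed 2-fold (median log2 −0.64), and their median over NT was −0.24 at RC4 and −0.86 at RC8. The median gene had 631 reads at RC4 and 808.5 at RC8, while the 100 most-read genes took 26.7% of the reads at RC4 and 23.5% at RC8. A level below is a gene's reads divided by those of the median gene of the same library. Levels of RC4 and RC8 come from separate tables. The NT reads, given in both, were within 2% of each other for 95.8% of genes. For 82 genes at RC4 and 33 at RC8, 1 of the 2 count columns of the library was listed at 0 while the other had 50 to 77 reads. The columns were taken as sequencing runs, which the labels do not state, and are called runs below. With a run at 0 the sum may understate the level, and a value from the other run is given beside every such gene named.

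From RC4 to RC8, 553 genes were higher by 2-fold or more (5.55% of 9972) and 528 were lower (5.29%), and "rose" and "fell" denote such differences below. Of these, 399 and 423 passed 2-fold in each of the 2 runs, and in 298 and 338 the whole 95% counting interval of the ratio lay past 2-fold. Scaled to total reads instead, 1313 genes were higher and 212 lower, since the median gene then shifted by 0.35 on the log2 scale. The typical gene that rose had been below NT at RC4 (median log2 −1.0) and was at 0.31 at RC8. The typical gene that fell had been above NT at RC4 (1.03) and was at −0.28 at RC8. Both groups were chosen by RC8 over RC4, so their directions relative to NT follow in part from that choice. Over all genes, the median absolute log2 difference from NT was 0.23 in AS, 0.39 at RC4 and 0.31 at RC8, and 2.91%, 12.7% and 6.31% of genes were 2-fold or more from NT. These values share the NT library.

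Many heat shock chaperones, which refold or hold misfolded proteins, fell. Of 19 measured members of a list of 21, 12 fell (63.2%, beside 5.29% of all genes) and 0 rose. The median log2 RC8 over RC4 was −1.50, beside −0.09 over all genes. Hspa1b, the stress-inducible Hsp70, had a level of 1.21 in NT, 6.81 in AS, 86.0 at RC4 and 2.57 at RC8. Its fall from RC4 to RC8 was 33.4-fold (log2 −5.06, 95% counting interval −5.13 to −5.0), the largest of the genes that met the naming rule. Dnajb1, the Hsp40 partner of Hsp70, was at 2.06, 7.46, 26.7 and 2.94 in the same order, a fall of 9.06-fold. Hsph1, a nucleotide exchange factor for Hsp70, was at 17.6, 18.8, 152 and 24.3, a fall of 6.27-fold. Both had returned to within 2-fold of NT at RC8, and Hspa1b had not, at log2 1.09 over NT. The constitutive Hspa8 fell 3.44-fold, from 136 to 39.6, and Hsp90aa1, the inducible cytosolic Hsp90, fell 2.92-fold, from 190 to 64.9. Cryab, a small heat shock protein, stayed highest relative to NT, with a level of 57.7 at RC4 and 38.2 at RC8 against 8.52 in NT. The mitochondrial chaperonins Hspd1 and Hspe1 did not pass 2-fold (log2 −0.92 and −0.77).

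Ubb, which encodes a chain of ubiquitin units, changed in the same direction and went past its starting level. It was at 20.6 in NT, 28.8 in AS, 50.5 at RC4 and 9.71 at RC8, a fall of 5.20-fold. Relative to NT, it was more than 2-fold higher at RC4 (log2 1.29) and more than 2-fold lower at RC8 (−1.08). The rise at RC4 would be under 2-fold when scaled to total reads (31855 reads at RC4, 16304 in NT). Zfand2a, an arsenite-inducible partner of the proteasome, fell 3.98-fold, from 10.3 to 2.58, and was still at log2 1.49 over NT. Of 31 proteasome subunits, 1 fell (Psmb7, log2 −1.02), or 3.2% beside 5.29% of all genes. The median was −0.22 (0.13 when scaled to total reads). Proteasome mRNAs stood at a median of 0.55 over NT at RC4 and 0.35 at RC8.

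**Figure D1:**
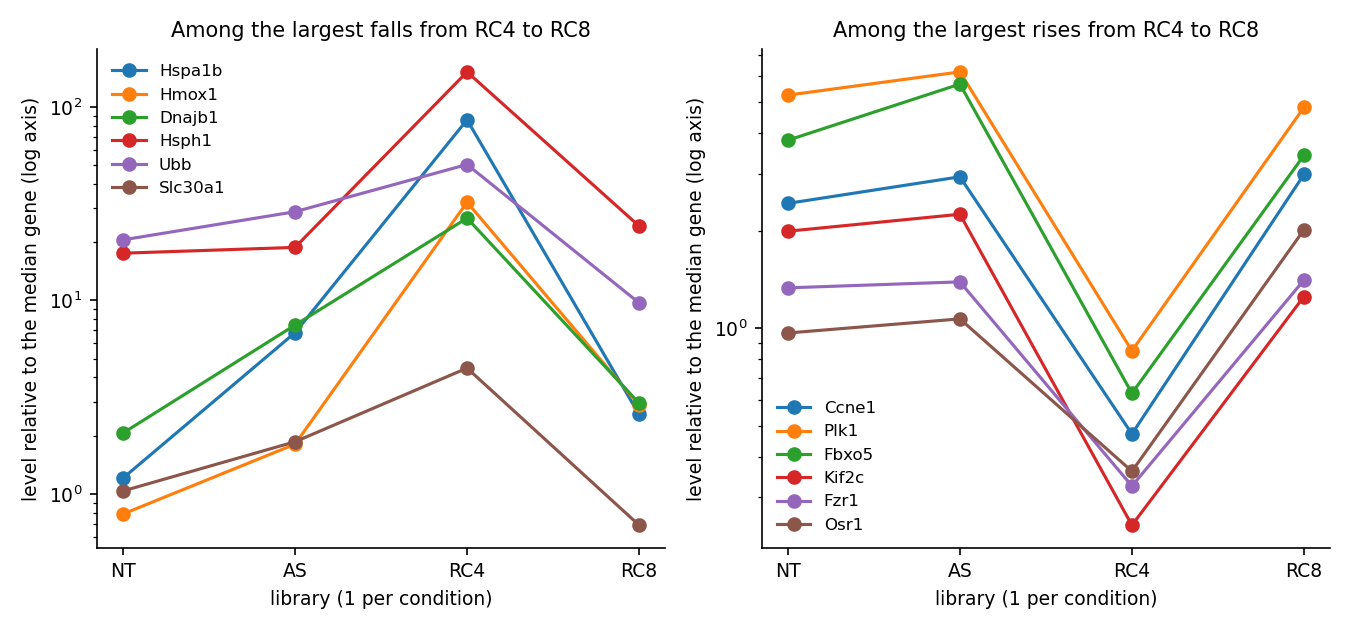
Level of 12 genes in the NT, AS, RC4 and RC8 libraries, relative to the median gene of each library and on a log axis, with 1 point per library and no replicate. Hspa1b rises from 1.21 in NT to 86.0 at RC4 and is at 2.57 at RC8, while Plk1 drops from 5.25 in NT to 0.851 at RC4 and is at 4.81 at RC8.

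NRF2 targets were divided, with 6 of 20 measured members falling (30%, beside 5.29% of all genes) and 0 rising. Their median log2 was −0.26, or 0.092 when scaled to total reads. Hmox1, the heme oxygenase that breaks down heme, was at 0.786 in NT, 1.80 in AS, 32.2 at RC4 and 2.88 at RC8, a fall of 11.2-fold. Srxn1, which reduces overoxidized peroxiredoxins, fell 5.15-fold (52.0 to 10.1), and Slc7a11, the cystine importer, fell 5.09-fold (7.22 to 1.42) from 0.180 in NT. Gclc, the catalytic subunit of the first enzyme of glutathione synthesis, fell 4.18-fold and was back at its NT level (1.13 in NT, 1.01 at RC8). Txnrd1, a thioredoxin reductase, and Sqstm1, an autophagy receptor, fell 2.65-fold and 2.63-fold and remained 2-fold or more above NT (log2 1.01 and 1.86). Several members did not pass 2-fold. Prdx1, a peroxiredoxin, was at 145 at RC4 and 146 at RC8 against 61.7 in NT, and Fth1, the ferritin heavy chain, was at 168 and 161 against 71.8. Nqo1, a quinone reductase, was higher at RC8 (5.15) than at RC4 (3.76), at log2 0.46 (95% counting interval 0.38 to 0.53).

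Both metallothioneins, small proteins that bind zinc and arsenic through cysteines, fell and remained far above NT. Mt2 was at 14.5 in NT, 37.9 in AS, 203 at RC4 and 54.2 at RC8, a fall of 3.75-fold. Mt1 was at 9.65, 23.7, 103 and 42.0, a fall of 2.46-fold, and was at log2 2.12 over NT at RC8. Slc30a1, the plasma membrane zinc exporter, fell 6.5-fold, from 4.47 to 0.688, and at RC8 was below its NT level of 1.03.

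Of the 21 measured ATF4 targets, 11 fell (52.4%, beside 5.29% of all genes) and 0 rose. All 21 of 21 were below a log2 of 0 (median −1.07). Nupr1, a stress-induced chromatin protein, fell 4.64-fold (4.00 to 0.863). Trib3, a pseudokinase that restrains ATF4, fell 3.22-fold, and Chac1, which degrades glutathione, fell 3.29-fold. Ppp1r15a, the phosphatase subunit that restores translation, was at 0.338 in NT, 1.74 in AS, 1.66 at RC4 and 0.559 at RC8. Ddit3, the transcription factor CHOP, had the same course, with levels of 1.16, 4.02, 3.79 and 1.40. These 2 genes were already high at the end of arsenite and had not changed by 2-fold between AS and RC4. Atf4 itself fell 2.31-fold, from 15.7 to 6.80, and ended below its NT level of 12.2. Chaperones of the endoplasmic reticulum stood lower too, with 3 of 17 falling (17.6%), namely Dnajb9, Pdia3 and Hspa5 (log2 −1.51, −1.20 and −1.15). The median of these 17 chaperones was −0.53, or −0.18 when scaled to total reads. Their median was below NT at RC8 (log2 −0.76).

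Immediate early genes are transcribed within minutes of a signal, and the median of their list over NT was highest in AS, although Maff, Fosl1, Ier5 and Klf4 were highest at RC4, Srf at RC8 and Fosl2 in NT. Egr1, a zinc finger transcription factor, was at 4.17 in NT, 27.9 in AS, 11.9 at RC4 and 3.40 at RC8. Jun, a subunit of AP-1, was at 4.79, 16.1, 6.86 and 4.30, and did not pass 2-fold between RC4 and RC8 (log2 −0.68). Of 19 measured genes of the list, 7 fell (36.8%, beside 5.29% of all genes) and 0 rose (median −0.64). The median over NT went from 0.80 in AS to 0.41 at RC4 and −0.28 at RC8. Of 8 measured MAP kinase phosphatases, which switch off the kinases upstream of these genes, 4 fell (50%) and 0 rose. Dusp4 was at 2.70 in NT, 2.69 in AS, 17.3 at RC4 and 5.41 at RC8, whereas Dusp1 was at 6.96, 17.3, 6.94 and 3.37.

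Other genes with large falls included secreted factors, transporters and a cyclin. Ereg, an EGF receptor ligand, fell 7.23-fold, from 9.57 to 1.32, and at RC8 was below its NT level of 3.74. Il11, a cytokine of the IL-6 family, fell 4.03-fold, and Ptgs2, the inducible cyclooxygenase, fell 3.88-fold, from 57.5 to 14.8. Tnfaip6, a hyaluronan-binding protein, fell 6.21-fold, and Slc20a1, a phosphate importer, fell 5.15-fold, from 29.4 to 5.71. The remaining largest falls were those of Tcim (6.06-fold), Gm1821 (5.31-fold), Sirt6, a nuclear deacetylase (5.29-fold), Ccng2, an atypical cyclin (5.28-fold), and Igf1. Gm1821 is a gene model, and its reads may be shared with a similar gene. Igf1, a growth factor, had 1 run at 0 at RC8, and its log2 of −2.38 was −1.38 from the other run. Of 15 p53 targets, 3 fell (Gadd45a, Mdm2 and Trp53inp1, log2 −2.03, −1.47 and −1.27) and 1 rose (Sesn1, 1.07). These are 20% and 6.7%, beside 5.29% and 5.55% of all genes. The chemokines Ccl2 and Cxcl5, low at RC4, had not come back: Cxcl5 was at 103 in NT, 14.1 at RC4 and 23.6 at RC8, and Ccl2 was at 43.3, 12.6 and 10.8.

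Genes that rose were led by regulators of the cell cycle. Of 21 measured mitosis genes, 11 rose (52.4%, beside 5.55% of all genes) and 0 fell. The median log2 RC8 over RC4 was 1.01. Plk1, the kinase that drives entry into mitosis, was at 5.25 in NT, 6.19 in AS, 0.851 at RC4 and 4.81 at RC8, a rise of 5.65-fold (log2 2.5, 95% counting interval 2.37 to 2.63). Cdk1, the mitotic cyclin-dependent kinase, was at 18.8, 25.5, 6.70 and 17.9, and its partner Ccnb1 at 3.59, 4.61, 1.03 and 3.46. Kif2c, a kinesin that depolymerizes microtubules, was at 1.99, 2.25, 0.246 and 1.25. Levels of these genes were low at RC4 alone, and at RC8 Plk1, Cdk1 and Ccnb1 were within 2-fold of NT. Not all mitosis genes rose: the log2 RC8 over RC4 of Birc5, Ube2c and Hmmr was −0.04, −0.14 and 0.08. The median of the list at RC8 was 0.51 below NT on the log2 scale.

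Some genes of the G1/S transition rose. Ccne1, the cyclin that starts S phase, was at 2.43 in NT, 2.94 in AS, 0.471 at RC4 and 2.98 at RC8, a rise of 6.34-fold. Cdc6, which licenses origins, rose 3.91-fold. Fbxo5 and Fzr1, an inhibitor and an activator of the anaphase-promoting complex, rose 5.44-fold and 4.33-fold, and both were within 2-fold of NT at RC8. Of the 21 DNA replication genes, only Ccne1, Cdc6 and Uhrf1 rose (14.3%, beside 5.55% of all genes) and 0 fell (median 0.40). The MCM helicase subunits Mcm2 to Mcm7 ranged from log2 −0.28 to 0.57. Osr1, a zinc finger transcription factor, was at 0.966 in NT, 0.361 at RC4 and 2.01 at RC8, and Pgpep1, a peptidase, rose 5.78-fold.

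The other 8 of the 15 largest rises had a run listed at 0 at RC4. They were Cdca5 (sororin, which holds sister chromatids together), Spon2, Fam69b, March9, Klf16, Atoh8, Pomt2 and Gpr180. Their log2 values of 2.24 to 3.12 from the summed runs became 1.24 (Gpr180) to 2.12 (Cdca5) from the other run, and all 8 remained past 2-fold. At RC8, Cdca5 had a level of 0.745 against 0.779 in NT.

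Further groups moved less, and their counts stand beside 5.55% of all genes that rose and 5.29% that fell. Of 10 SR splicing factors, which bind exonic enhancers, 1 rose (Srsf5, log2 1.14) and the median was 0.74. Of 18 measured genes of cholesterol synthesis, 4 fell, led by Cyp51 (36.2 to 11.6, log2 −1.65), and the median over NT was −0.57 at RC4 and −1.11 at RC8. Of 17 collagen and matrix genes, 1 fell (Timp3, log2 −1.18). Of 81 cytosolic ribosomal proteins, 3 fell (Rpl4, Rps13 and Rps24), and the median was −0.52, or −0.17 when scaled to total reads. Rpl4 and Rps13 share a PAS with another gene or differ in NT reads between the tables, and ribosomal protein reads may be shared with processed copies. Of 72 oxidative phosphorylation genes, 1 fell (Ndufb2, also one of those cases), with a median of −0.38, or −0.03 when scaled to total reads. Of 14 measured YAP and TGF-beta responsive genes 1 rose (Ajuba, log2 1.29), of 12 chemokines and cytokines 2 fell, of 11 long noncoding and snoRNA host genes 0 passed 2-fold, and of the 3 D-type cyclins 0 passed 2-fold. Of 179 Zfp genes, 11 rose (6.1%, near the share of all genes) and 3 fell (1.7%). Their median was 0.09, or −0.081 with at least 200 reads. Among the 11, Zfp358, Zfp449 and Zfp61 had a run at 0 at RC4. They were at log2 0.18, 0.67 and 0.31 from the other run. Of 19 measured cleavage and polyadenylation factors, 1 rose (Cstf1, a subunit of the CstF complex, log2 1.25), 0 fell, and the median was 0.01, a value that changed sign with the filter on reads (−0.069 with at least 200 reads).

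**Figure D2:**
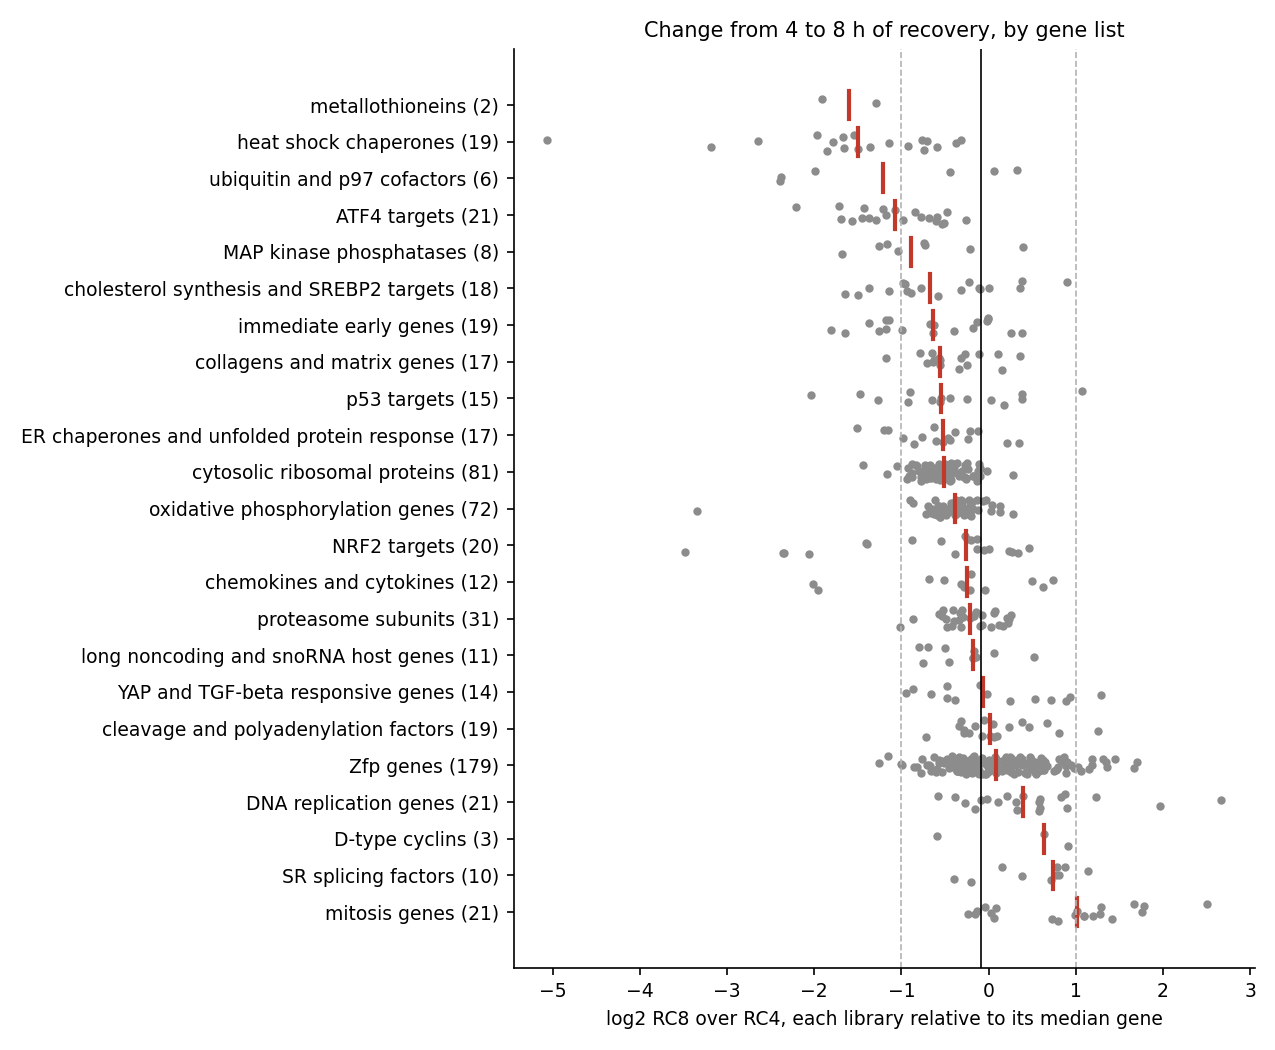
Each grey point is the log2 RC8 over RC4 of 1 gene, relative to the median gene of each library, with the number of measured genes beside each list name. Red bars are list medians, dashed lines mark 2-fold, and the black line is the median of all 9972 genes (−0.09). Heat shock chaperones (median −1.50) lie to the left and mitosis genes (1.01) to the right.

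The state at the end of arsenite gave a grouping of genes that uses neither recovery library. Of 9875 genes in all 3 tables, 65 were 2-fold or more above NT in AS. Of these, 53 were lower at RC8 than at RC4, 29 fell (44.6%, beside 5.29% of all genes) and 3 rose, with a median log2 RC8 over RC4 of −0.86 (95% order-statistic interval −1.25 to −0.66). Their median over NT was 1.21 in AS, 1.09 at RC4 and 0.32 at RC8. The 222 genes 2-fold or more below NT in AS had a median of −0.08 (−0.15 to 0.05), beside −0.09 (−0.10 to −0.07) for the 9588 genes within 2-fold, and their median over NT was already −0.03 at RC4. The 3 that rose among the 65 were Id3, an inhibitor of basic helix-loop-helix factors (61.3 in AS, 20.3 at RC4, 42.1 at RC8), Fam110a and Gm8394. Ifrd1, a transcriptional regulator, fell 3.93-fold, from 85.0 to 21.6, and Mir1938, a microRNA locus with nearly the same values (84.4 to 21.5), was counted as a gene of its own.

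**Figure D3:**
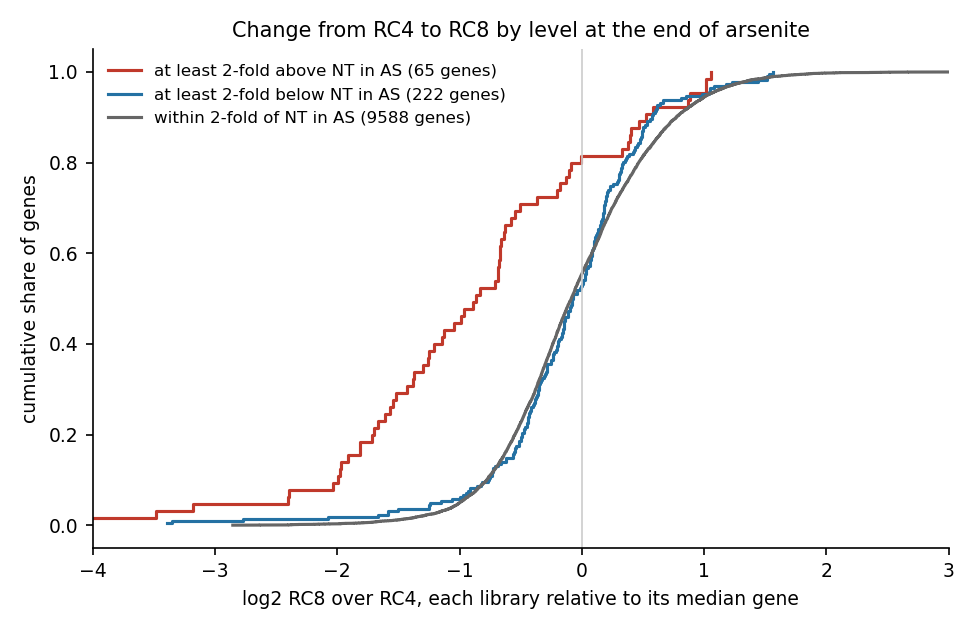
Cumulative share of genes by log2 RC8 over RC4, for genes 2-fold or more above NT in AS (65), below NT (222) and within 2-fold (9588). The curve of the 65 genes lies left of the others, with a median of −0.86 beside −0.08 and −0.09, and 12 of the 65 genes lie at or above 0.

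Gene span, from GENCODE vM1 on mm9 for 8828 genes, related to the change only at its ends. The median log2 RC8 over RC4 was −0.23 for 1386 genes under 5 kb (95% order-statistic interval −0.27 to −0.19) and −0.18 for 2027 genes of 60 kb or more (−0.21 to −0.15). It was 0.00 for the 2634 genes of 5 to 20 kb and also for the 2781 genes of 20 to 60 kb. The 2 ends differed in AS, where the shortest genes were at a median of 0.21 over NT and the longest at −0.17.

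Promoters of the groups were searched for the elements of their usual regulators, on both strands of RefSeq promoters from 250 bases before to 50 after each start (GRCm38.p6). Of the 9972 genes, 7260 had one, and these are the measured genes below. All 27025 genes with a RefSeq promoter are given as a further background. The heat shock element (GAA, TTC and GAA with 2 bases after each of the first pair) was found in 4 of 17 heat shock chaperones (23.5%), in 0.54% of the measured genes and in 0.66% of all RefSeq genes. The antioxidant response element (TGAC and GC with 3 bases between) was found in 7 of 17 NRF2 targets (41.2%), 17.3% of the measured genes and 14.0% of all RefSeq genes. The cell cycle homology region TTTGAA was found in 14 of 19 mitosis genes (73.7%), 13.9% of the measured genes and 20.2% of all RefSeq genes. In the genes that fell as a whole, the heat shock element was in 0.85% and the antioxidant response element in 21.0% of those with a promoter, and in the genes that rose the cell cycle homology region was in 16.5%. The metal response elements TGCACNC and TGCGCNC were in both metallothioneins, in 41.3% of the measured genes and in 28.2% of all RefSeq genes. These letters mark matches and not bound sites. For Hspa1b, Dnajb1, Hmox1, Slc7a11 and Gclc, no match to the element of their list was found or no promoter was available. Cdc20, an activator of the anaphase-promoting complex, rose 2.42-fold, from a level of 1.62 to 3.92. Examples of matches in members of these lists, with the element in capitals, were as follows.
Hsph1, chr5:149636287-149636316, minus strand: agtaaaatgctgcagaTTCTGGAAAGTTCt
Srxn1, chr2:152105542-152105571, plus strand: gcagtgggcaGCTAGGTCAgagtgagacac
Txnrd1, chr10:82859104-82859133, plus strand: ctggatttttGCTTTGTCAttctgacacgg
Mt1, chr8:94179055-94179084, plus strand: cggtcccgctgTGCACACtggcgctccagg
Mt2, chr8:94172479-94172508, plus strand: cgcagacccttTGCGCTCagctcctttgct
Plk1, chr7:122159453-122159482, plus strand: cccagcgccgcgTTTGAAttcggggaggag
Cdc20, chr4:118437344-118437373, minus strand: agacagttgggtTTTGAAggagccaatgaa

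PAS use shifted toward the 3′ ends of genes between RC4 and RC8. REDu compares the pair of PASs of a 3′-most exon with the largest change, as a log2 ratio of ratios, and is positive where the distal PAS gained at RC8. Over 3930 genes the median REDu was 0.25 (95% order-statistic interval 0.21 to 0.28), 2443 genes were above 0 and 1480 below. It was 1 or more in 614 genes (15.6%) and −1 or less in 185 (4.71%). Between the NT fractions of the 2 tables, which come from the same library, the median was 0 and 19 and 30 genes passed the same limits. This comparison shows only what separate processing of the same library adds. It holds no counting error or difference between libraries, and the pair was chosen by its change between RC4 and RC8, not between the NT fractions. The shift grew with the distance between the PASs. The median was 0.12 (0.07 to 0.16) over 1450 genes with PASs under 300 nt apart, 0.21 (0.15 to 0.25) over 1468 genes at 300 to 1500 nt and 0.52 (0.45 to 0.58) over 1012 genes beyond 1500 nt.

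REDi compares an internal PAS, upstream of the 3′-most exon, with a PAS of the 3′-most exon, and is positive where the internal PAS lost at RC8. Over 1125 genes its median was 0.53 (0.46 to 0.60), and 337 genes were at 1 or more (30%) and 66 at −1 or less (5.87%). Between the NT fractions, again from the same library, 7 and 3 genes passed these limits. The median was 0.53 for intronic and 0.52 for internal exonic PASs. Expressed as levels, isoforms ending at internal PASs of these 1125 genes had a median log2 RC8 over RC4 of −0.45 (−0.50 to −0.41), and isoforms ending in the 3′-most exon were at −0.08 (−0.13 to −0.04). Internal isoforms fell by 2-fold or more in 210 genes and rose in 22. These values are relative to the median gene. Scaling to total reads would add 0.35 to each log2 value, which turns the sign for the 3′-most exon and leaves the difference between the 2 classes unchanged.

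**Figure D4:**
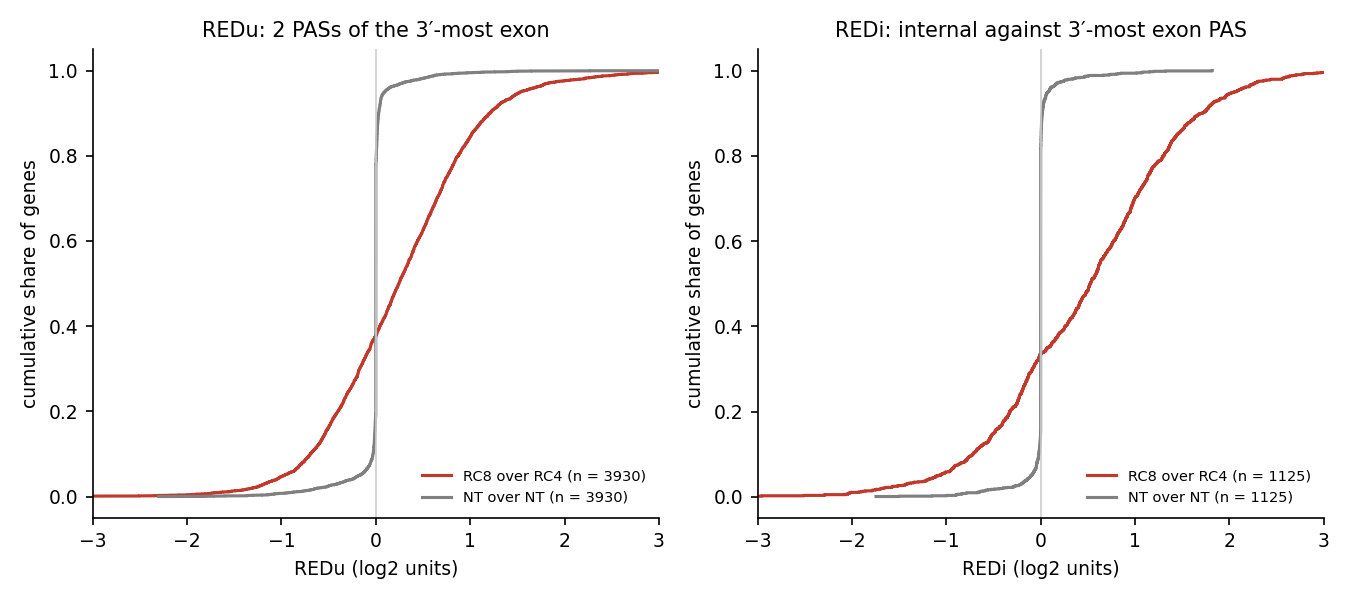
Cumulative share of genes by REDu (left, 3930 genes) and REDi (right, 1125 genes), in log2 units, for RC8 over RC4 (red) and for NT of one table over NT of the other (grey). The red curves lie to the right of the grey step at 0, with medians of 0.25 and 0.53. The grey curves come from the same NT library processed separately and hold no counting error or difference between libraries.

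Among single sites, 1309 intronic PASs in genes with several PASs lost a mean of 3.34 percentage points of their gene's reads. A loss of 10 points or more was found at 245 of them (18.7%, beside 9.73% of all PASs tested) and a gain of 10 points or more at 59 (4.51%, beside 10.2%). PASs of the 3′-most exon gained a mean of 0.58 points. Relative to NT, the mean share of intronic PASs was 0.52 points higher in AS, 2.31 points higher at RC4 and 0.81 points lower at RC8, over 1237 PASs in all 3 tables. Intronic PASs that had gained at least 5 points in AS, a grouping without the recovery libraries, lost a median of 5.50 points from RC4 to RC8 (221 PASs, −7.31 to −3.20). Those that had lost 5 points in AS, and the rest, were at medians of −1.35 (172 PASs) and −1.48 (844 PASs). The loss was larger near gene starts: intronic PASs in the first part of 3 equal parts of the gene lost a median of 2.86 points (347 PASs, −4.50 to −2.30) and those in the last part 1.31 (509 PASs, −2.08 to −0.62).

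Intronic PASs were also grouped by the sequence at the site. The 3′ end of B2, a short interspersed repeat of mouse transcribed by RNA polymerase III, carries the hexamer AATAAA directly followed by TCTTT, and these letters were found within the 60 nt up to the PAS on the transcript strand at 86 of the 1309 intronic PASs (6.57%) and at 0.40% of PASs of the 3′-most exon. These 86 PASs, in 83 genes, lost a median of 9.85 points from RC4 to RC8 (95% order-statistic interval −14.7 to −6.10). The repeat letters were chosen with earlier results of these data known, so the difference from other sites is a description and not an independent test. A loss of any size was found at 74 of them (86.0%), and a loss of 10 points or more at 43 (50%). The 1217 intronic PASs with neither this sequence nor the end of B1 repeats (CCCTGTCTC, 6 PASs) lost a median of 1.62 points (−2.0 to −1.1), and 60.4% of them lost. A tracts downstream, where oligo(dT) can prime inside a transcript, were counted too. Without the repeat sequences, the median was −2.80 at 181 intronic PASs with an A tract and −1.40 at 1036 without one. Over NT, the B2 PASs in all 3 tables (76) were at a median of 3.60 points in AS, 7.80 at RC4 and 0.25 at RC8, so that the gain seen at 4 h was gone at 8 h. The other intronic PASs were at 0.03, 0.50 and −1.13 points. Whether the A tract of the repeats has a part in these shares was not tested.

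Taf6 encodes a subunit of TFIID, and its intronic PAS held 7.72% of the reads in NT, 13.1% in AS, 60.4% at RC4 and 18% at RC8 (REDi 2.80). The intronic PAS has the B1 letters and is followed by an A tract. The intronic PAS of Polh, a translesion DNA polymerase, held 12.0%, 12.1%, 47.1% and 10.2% (REDi 3.03), and it has the B2 sequence. Zfp444, a zinc finger gene, also has the B2 sequence at its intronic PAS, which held 49.1% in NT, 85.5% at RC4 and 54.4% at RC8 (REDi 2.31). At RC8, the intronic share of Polh was within 2 points of NT, and those of Taf6 and Zfp444 were still above it. Iqce, a ciliary protein gene, had the highest REDi of the genes that met the naming rule (3.75), with an intronic share of 43.9% in NT, 48.3% in AS, 85.8% at RC4 and 31.0% at RC8. Gnb1l, a WD repeat gene, went from 81.0% at RC4 to 31.3% (REDi 2.97), and Kif14, a mitotic kinesin, from 68.3% to 23.7% (REDi 2.71), both from NT shares below those of RC4 (45.8% and 29.5%). Neither the B1 nor the B2 letters were found at the intronic PASs of Iqce, Gnb1l and Kif14. A downstream A tract follows the intronic PASs of Zfp444 and Kif14, besides that of Taf6, and not those of Polh, Iqce and Gnb1l. The Polh sequence up to the PAS itself ends in a run of A. The 30 nt up to the cleavage position of intronic and distal PASs are shown to compare the classes (mm9, hexamer AATAAA or ATTAAA in capitals).
Taf6 intronic, chr5:138627611-138627640, minus strand: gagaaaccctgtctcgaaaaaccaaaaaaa
Taf6 distal, chr5:138619848-138619877, minus strand: agttcctcagAATAAAagttggatttgtaa
Polh intronic, chr17:46322110-46322139, minus strand: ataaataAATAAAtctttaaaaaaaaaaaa
Polh distal, chr17:46308304-46308333, minus strand: acattgagacAATAAAaatgtactctttga
Zfp444 intronic, chr7:6126206-6126235, plus strand: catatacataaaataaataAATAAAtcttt
Zfp444 distal, chr7:6141990-6142019, plus strand: agagtAATAAAgtgactgactcagtgtgta
Iqce intronic, chr5:141171126-141171155, minus strand: ctagactcacaaccaaaaatacgatattat
Iqce distal, chr5:141139490-141139519, minus strand: tcatctATTAAAggcaaagcctgtcttgaa

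The lowest REDi values ran the other way. The intronic share of Mmab, a mitochondrial cobalamin enzyme, was 22.2% in NT, 26.9% in AS, 11.0% at RC4 and 40.7% at RC8 (REDi −2.95). That of Dtd2, a tRNA proofreading enzyme, was 45.6%, 33.4%, 21.7% and 57.4% (REDi −2.28). In Prickle2, a planar cell polarity gene, it was 38.6% in NT, 6.60% at RC4 and 17.6% at RC8 (REDi −2.04). The internal exonic shares of Rala, a small GTPase, and Dek, a chromatin protein, were 5.04% and 5.11% at RC4 and 9.99% and 9.52% at RC8. The RC8 shares of Mmab and Dtd2 lay above those of all other libraries, whereas that of Prickle2 was between RC4 and NT.

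**Figure D5:**
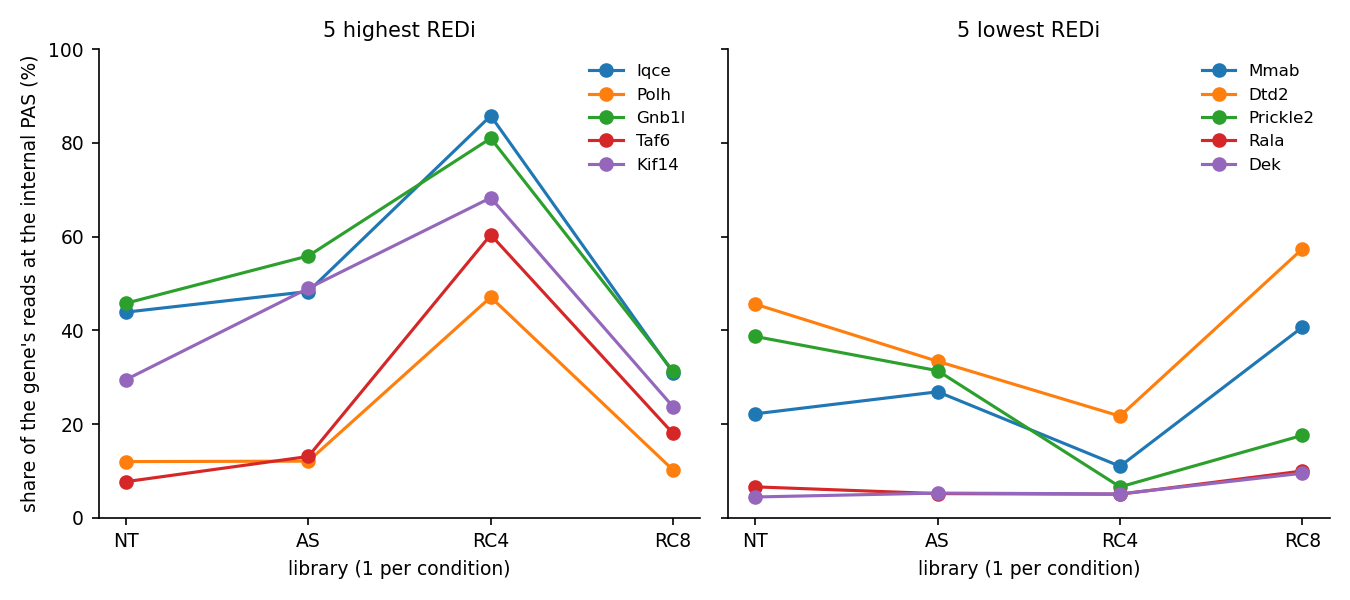
Share of a gene's reads at the internal PAS (%) in the NT, AS, RC4 and RC8 libraries, 1 point per library, for the 5 genes with the highest REDi (left) and the 5 with the lowest (right) under the naming rule. Taf6 goes from 7.72% in NT to 60.4% at RC4 and 18% at RC8, and Mmab from 22.2% to 11.0% and 40.7%.

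In the 3′-most exon, the hexamers AATAAA and ATTAAA, which bind the cleavage machinery, went with a larger median gain at last PASs and a larger median loss at first PASs. The last PAS of genes with several gained a median of 2.5 points where a hexamer lay within 40 nt upstream (2524 PASs, 2.2 to 2.8) and 1.2 points where none did (1301 PASs, 0.80 to 1.70). The first PAS lost a median of 2.05 points with a hexamer (1320 PASs, −2.5 to −1.57) and 1.2 points without (2505 PASs, −1.60 to −0.90). Of all PASs of the 3′-most exon, 61.0% of the 1132 that gained 10 points or more had a hexamer, 43.8% of the 840 that lost as much and 49.2% of the rest (8134 PASs). These shares pool all places. Hexamers were more frequent at last than at first PASs, so the shares do not separate hexamer from place.

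Rpl36al, a ribosomal protein gene, had the highest REDu under the naming rule of a gene with several exons, apart from Klf7. Its distal PAS held 73.1% in NT, 78.5% in AS, 42.4% at RC4 and 85.9% at RC8 (REDu 3.05). An A tract follows its proximal PAS. In Klf7, a Krüppel-like transcription factor, the distal PAS held 19.6%, 22.4%, 7.80% and 30.3% (REDu 3.23). The other 3 of the 5 highest, Rpl3-ps1, Gm10073 and Gm16418 (3.46 to 3.77), are single-exon gene models with PASs under 300 nt apart. Their reads may be shared with near-identical genes. The 30 nt up to the distal PAS are all A in Rpl3-ps1 and end in a run of A in Gm10073 and Gm16418. Whether priming of oligo(dT) at these runs has a part in the scores was not tested. Nmt1, an N-myristoyltransferase, had REDu 1.49, and its distal PAS held 25.8% in NT, 11.0% at RC4 and 19.8% at RC8. The proximal PAS of this pair held 9.36% at RC4 and 6.02% at RC8. Most Nmt1 reads were at an internal exonic PAS, with 64.6% in NT, 79.6% at RC4 and 74.2% at RC8. Purb, a single-stranded nucleic acid-binding protein, had REDu 0.64, with the distal PAS at 61.9% in the NT of the RC4 table, 49.8% at RC4 and 62.1% at RC8.

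The lowest REDu values were those of Cops7b, a signalosome subunit (−3.36), Etv1, an ETS transcription factor (−2.50), Slc7a11 (−2.31), Cenpf, a kinetochore protein (−2.20), and Igsf8, a membrane protein (−2.09). In Cenpf, the proximal PAS held 68.3% in NT, 48.1% in AS, 36.9% at RC4 and 72.9% at RC8. Its share was thus below NT in both AS and RC4, and near NT at RC8. Both of its PASs have a hexamer, they are 1375 nt apart, and the distal one, which gained at RC4 and lost at RC8, has the B2 letters. Over the 40 PASs of 3′-most exons with these letters, the median change from RC4 to RC8 was −3.57 points (−12.9 to 1.80).
Cenpf proximal, chr1:191465860-191465889, minus strand: tggtgatatATTAAAgtatgtccttgtaaa
Cenpf distal, chr1:191464485-191464514, minus strand: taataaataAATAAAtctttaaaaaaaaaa
Slc7a11, the cystine importer whose level fell 5.09-fold, had its proximal PAS at 11.9% in NT, 13.5% at RC4 and 35.7% at RC8. The distal PAS of Cops7b fell from 27.5% at RC4 to 5.62% at RC8, against 30.5% in NT, and in Etv1 the distal PAS was at 12.9% in NT, 25.9% at RC4 and 7.59% at RC8. Igsf8 had its proximal PAS at 14.8% in NT, 7.17% at RC4 and 24.7% at RC8.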

How the data were processed

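The authors trimmed reads with bbmap, mapped them to mm9 with STAR 2.5.2a and ran MAAPER with PolyA_DB PASs, for genes with at least 50 reads and PASs at 5% or more. The authors deposited raw counts of reads for each gene, with 2 columns to a library that were treated here as runs and added, and for each PAS the fraction of the gene's reads. Their P values, RLD and RED columns were not used, and QuantSeq REV libraries were not analysed here. AS, RC4 and RC8 were each processed with NT in a separate table. RC4 was compared with RC8 by counts relative to the median gene, with exact (Clopper-Pearson) 95% intervals on ratios, Wilson intervals on shares and order-statistic intervals on medians, which cover counting error or the spread of genes only. Both RED scores were calculated anew from these deposited fractions, with RC4 as the reference. Genes were named as the 15 largest rises and falls among genes in all 3 tables with at least 200 reads in RC4 or RC8, NT reads within 2% between tables and no PAS shared with another gene, and the 5 highest and lowest REDu and REDi of genes with at least 200 reads, both PASs at 5% or more, the same PASs in both tables and an NT score within 0.25. List members past 2-fold and others were added as examples. An A tract was 6 A in a row, or 7 within 10 nt, in the 20 nt downstream. Members, lists and repeat motifs were chosen with earlier results of these data known. TMM factors came from edgeR 4.0.16 in R 4.3.3 on the deposited counts, and other steps ran in Python 3.11.15. Some items covered by the naming rules are not reported here. The scripts were tested on simulated data.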

Additional observations from a re-analysis of the deposited data

Results flagged for a closer look

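Among the named genes, 4 stood 2-fold or more on opposite sides of NT at 4 h and at 8 h, with 1 library each, so that the difference between the 2 times was not tested across cultures. Both times are compared with the same NT library, and the values are relative to the median gene. Scaled to total reads, Ubb and Gm1821 would be under 2-fold above NT at RC4. Ubb had 31855 reads at RC4 and 16304 in NT, and Gm1821 had 1912 and 1090, at totals of 22.9 M and 22.5 M. Ubb, a polyubiquitin gene, was at log2 1.29 over NT at RC4 and at −1.08 at RC8. Ereg, an EGF receptor ligand, was at 1.36 at RC4 and −1.50 at RC8. Gm1821, a gene model whose reads may be shared with a similar gene, was at 1.14 and −1.27. Osr1, a zinc finger transcription factor, ran the other way, from −1.42 at RC4 to 1.06 at RC8.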

How the results depend on the processing

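Each condition has 1 library, so sampling of cultures is not covered. No paired analysis was possible because each condition has 1 library, so the groups share fewer than 2 replicate numbers. Scaling to total reads gave 1313 genes higher and 212 lower (86.1% higher, against 51.2%). It moved the median of genes 2-fold above NT in AS to −0.57, and turned the medians of genes below NT (0.27) and within 2-fold of NT (0.26), of all genes (0.26), NRF2 targets (0.092), chemokines and cytokines (0.10), YAP and TGF-beta responsive genes (0.29), proteasome subunits (0.13) and long noncoding and snoRNA host genes (0.17). It also brought the median of collagens and matrix genes to −0.20 and that of oxidative phosphorylation genes to −0.03. TMM factors moved the median of genes within 2-fold of NT to −0.026 and gave 60% higher. Scaling to the median ratio, chosen after seeing the data, gave 64.0% higher and medians of 0.00083 and 0.0029 for genes below and within 2-fold of NT in AS and 0.028 for YAP and TGF-beta responsive genes. With at least 200 reads in both libraries, 265 genes were higher (39.3% of the changed), the medians of genes above and within 2-fold of NT in AS were −1.28 and −0.15 (difference −1.13), and cleavage and polyadenylation factors and Zfp genes turned to −0.069 and −0.081. From the second run alone, cleavage and polyadenylation factors were at −0.014. Replacing runs at 0 by the other run, chosen after seeing the data, gave 508 genes higher and 508 lower. The first and last PAS gave a median REDu of 0.21, PASs at least 300 nt apart 0.34, and all internal against all 3′-most exon PASs a median REDi of 0.40. The causes were not tested, apart from fewer genes under the stricter filters. All 30 genes chosen by the naming rule for levels stayed past 2-fold wherever a value could be computed, and 16 of 23 lists kept the sign of their median throughout.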
